A study of Mus musculus with 16 samples.

Results

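The TGF-β and BMP ligands and antagonists were followed in mouse embryo fibroblasts (MEFs) that carry or lack SIMPL, a coactivator of the NF-κB subunit p65 that is encoded by Irak1bp1. The group was a fixed list of 10 genes: the ligands Tgfb1, Tgfb2, Tgfb3, Inhba, Bmp2, Bmp4 and Gdf15 and the antagonists Grem1, Fst and Nog. Each gene was read from its brightest probe set on the array, and each of the 9 measured genes had only 1. These are 6 ligands and 3 antagonists of the 19938 genes tested; Gdf15 was not analysed here. RNA was hybridised to Affymetrix Mouse Gene 1.0 ST arrays, 16 in all and 4 to a group. The 4 groups were littermate MEFs (genotype WT) and SIMPL-/- MEFs (genotype IRAK1BP1 KO), each untreated or treated with recombinant human TNFα at 10 ng/ml. The treatment lasted 45 min by the labels and 1 h by the methods of the study, and all groups share the strain background C57Bl/6 x 129Sv and were proliferating cultures. The fibroblasts of each genotype were derived 4 separate times, each time from 1 embryo, and no source ties an array to an embryo. The p-values therefore rest on the spread between arrays within a group, pooled over the 4 groups. The fit takes the 16 arrays as independent, although untreated and treated arrays of a genotype may share an embryo. The comparisons ask how TNFα changes these transcripts, whether the change depends on SIMPL, and how the genotypes differ.

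TGF-β, activin and BMP dimers are secreted proteins that bind pairs of serine/threonine kinase receptors, which phosphorylate SMAD transcription factors. TGF-β and activin act mainly through one set of receptor SMADs and BMPs through another, and in fibroblasts TGF-β is best known as an inducer of extracellular matrix genes. Antagonists bind the ligands outside the cell: follistatin captures activin, and gremlin and noggin capture BMPs.

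All values are log2 RMA values, so that a difference of 1 is a 2-fold change, and a gene was called at a Benjamini-Hochberg adjusted p under 0.05 over all genes in limma. Irak1bp1 was 8.09 ± 0.17 (SD, n = 4) in untreated littermate and 5.36 ± 0.19 in untreated SIMPL-/- MEFs, which differ by -2.73 on the log2 scale (SE 0.12, limma adjusted p = 2.15e-12). All 5 genes fixed as a check of the TNFα treatment rose in both genotypes, with a median response of 3.34 in littermate and 2.93 in SIMPL-/- MEFs. In the test of the difference between the responses, 3 of the 5 rose less in SIMPL-/- MEFs (median difference -0.40). Of all genes, 2.7% rose in littermate and 1.73% in SIMPL-/- MEFs, and 0.441% had a lower response in SIMPL-/- MEFs. The 14 fibroblast markers averaged 11.90 to 12.01 on the untreated littermate and 11.7 on the untreated SIMPL-/- arrays, and Col1a1, a type I collagen chain, was the brightest of them. The genotypes also differed in markers of other cells. The 24 myeloid markers averaged 9.42 to 9.80 per array in untreated littermate, 9.53 to 9.97 in TNFα treated littermate, 7.39 to 7.53 in untreated SIMPL-/- and 7.40 to 7.53 in TNFα treated SIMPL-/- MEFs, and 23 of the 24 were lower in SIMPL-/- MEFs both without and with TNFα. Their brightest gene, Lyz2 (lysozyme), had a mean of 12.01 in untreated littermate and 10.2 in untreated SIMPL-/- MEFs, and the dimmest, Clec7a, had a mean of 5.06 and 5.12. All 6 adipocyte markers and 5 of 6 epithelial markers were higher in untreated SIMPL-/- MEFs, with list means of 8.42 against 7.04 and 7.63 against 6.72. Of the fibroblast markers 9 were lower and 3 higher in untreated SIMPL-/- MEFs, of 6 smooth muscle markers 1 and 3, of 7 endothelial markers 0 and 1, and of 7 chondrocyte and osteoblast markers 1 and 1. Of all genes, 23.3% were called higher and 17.6% lower in untreated SIMPL-/- MEFs, and 18.4% were called lower with TNFα. The genotype differences below come from the same arrays as these marker differences. What part the other cell types have in them was not tested. In these bulk RNA samples fewer cells of a type and less RNA per cell cannot be told apart.

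Promoter windows were looked up for the members because TNFα signals through NF-κB and AP-1. RefSeq promoter sequences on GRCm38.p6 matched 5 of the 9 measured members (Tgfb1, Tgfb2, Inhba, Bmp4 and Grem1). The 250 bases before the start are shown for Tgfb1, Tgfb2 and Inhba, the members that rose with TNFα in SIMPL-/- MEFs, as chr7:25686752-25687001 on the plus strand, chr1:186705990-186706239 on the minus strand and chr13:16011601-16011850 on the plus strand. Capitals mark a match to the NF-κB consensus.
Tgfb1: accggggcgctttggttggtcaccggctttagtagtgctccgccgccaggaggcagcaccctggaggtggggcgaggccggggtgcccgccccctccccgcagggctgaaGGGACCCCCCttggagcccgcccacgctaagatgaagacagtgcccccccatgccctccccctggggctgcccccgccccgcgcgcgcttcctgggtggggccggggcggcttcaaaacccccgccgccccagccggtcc
Tgfb2: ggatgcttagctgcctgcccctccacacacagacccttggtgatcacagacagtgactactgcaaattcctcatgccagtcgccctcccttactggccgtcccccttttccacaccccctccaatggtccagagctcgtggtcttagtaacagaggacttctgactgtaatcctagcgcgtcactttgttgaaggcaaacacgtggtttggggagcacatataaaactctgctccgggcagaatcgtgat
Inhba: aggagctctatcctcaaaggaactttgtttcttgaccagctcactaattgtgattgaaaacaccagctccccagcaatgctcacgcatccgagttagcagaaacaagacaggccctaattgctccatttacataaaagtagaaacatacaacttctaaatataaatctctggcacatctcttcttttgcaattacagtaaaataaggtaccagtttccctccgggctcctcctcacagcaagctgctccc
The windows searched run to 50 bases after the start and hold 300 bases. The start used for Tgfb1 is the outermost of the gene, and those used for Tgfb2 and Inhba lie inside the gene. The Tgfb1 window held the only match in the 5 windows, GGGACCCCCC, at bases -140 to -131 from the start. The NF-κB consensus was found in 8.46% of all 32851 promoters of the table, the AP-1 letters TGANTCA in 7.81% and the CRE letters TGACGTCA in 1.79%, each on both strands. Tgfb1 has the highest GC content of the 5 windows (77.0%, against 47.7% for Inhba). A match is a description of the letters and does not show binding.

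Members that bind or form activin were those most changed by genotype. In untreated cells 5 of the 9 members were higher in SIMPL-/- MEFs (Tgfb1, Inhba, Grem1, Fst and Nog) and 3 were lower (Tgfb2, Tgfb3 and Bmp2). Of all genes tested, 23.3% were called higher and 17.6% lower in this contrast. With each array centred on its median, 3548 genes were higher and 3725 lower, against 4640 and 3511 without centring. With TNFα 4 members were higher (Tgfb1, Inhba, Grem1 and Fst) and 2 were lower (Tgfb2 and Bmp2), against 17.8% and 18.4% of all genes. The median difference over the 9 members was 0.22 without and 0.09 with TNFα, beside 0.07 and 0.03 over all genes. All 3 antagonists were higher in untreated SIMPL-/- MEFs and 2 of the 3 were higher with TNFα, while the 6 ligands divided between the directions.

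**Figure D1:**
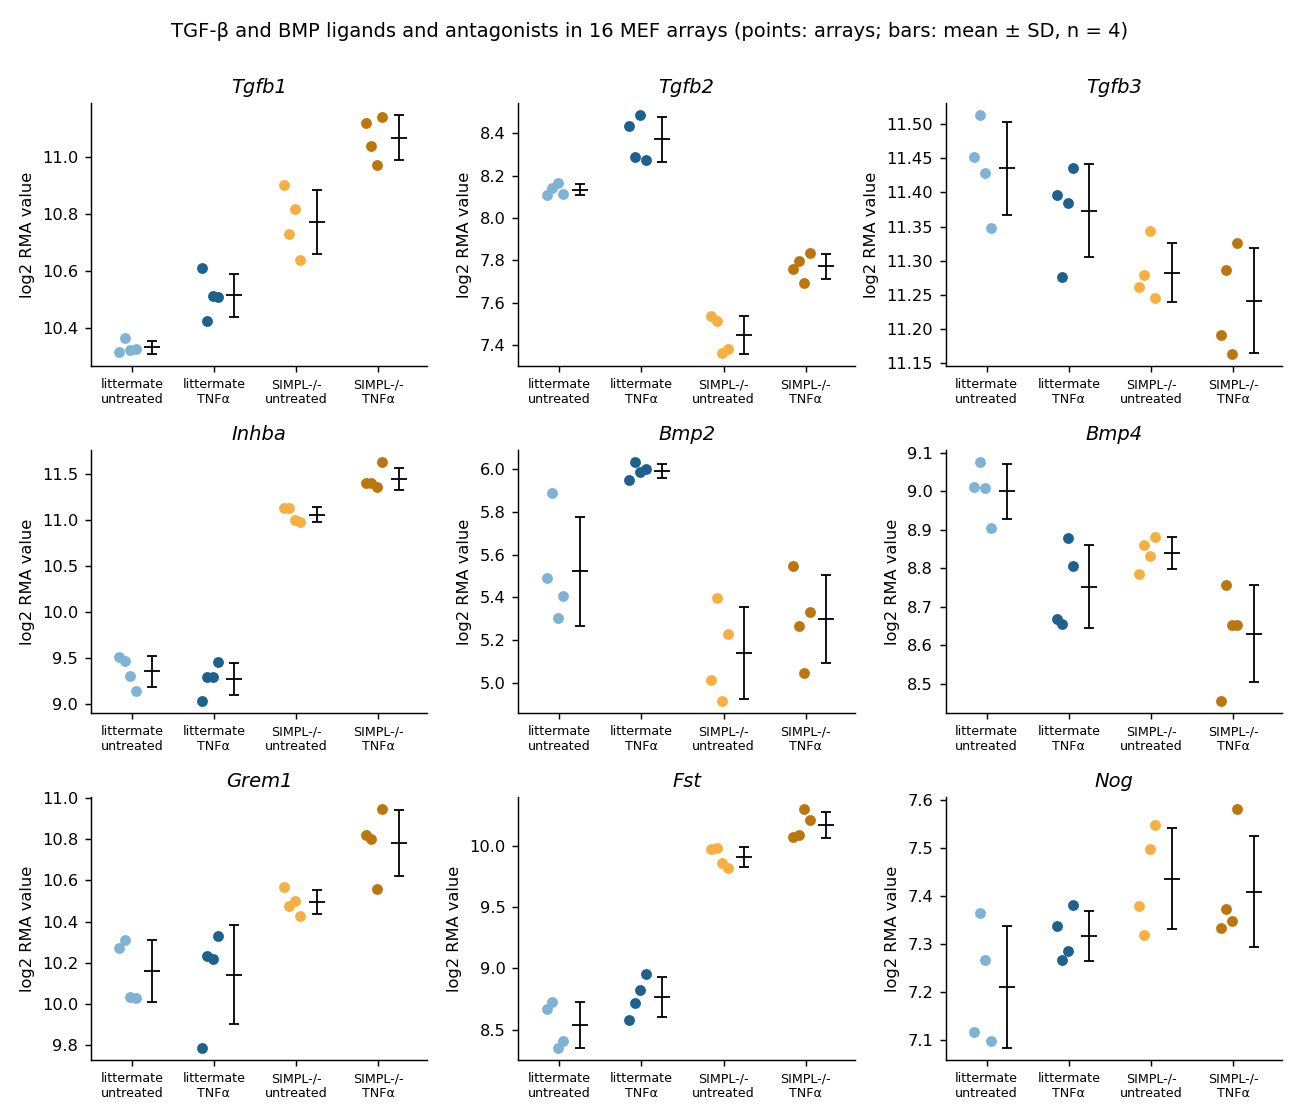
Log2 RMA values of the 9 measured members on each of the 16 arrays, with one panel per gene and its own vertical axis that does not start at 0; points are arrays and black bars the mean ± SD (n = 4). Inhba and Fst form a separate high level on the SIMPL-/- arrays and Tgfb2 a separate low one, and the TNFα steps of these genes are smaller. Tgfb1 and Grem1 also lie above all littermate arrays, by less. For Bmp2 and Bmp4 the TNFα step in littermate MEFs (0.47 and -0.25) is larger than the untreated genotype difference (-0.38 and -0.16).

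Inhba, which encodes the subunit of activin A, showed the largest genotype difference of the members. Its values were 9.52, 9.47, 9.31 and 9.14 in untreated littermate MEFs and 11.13, 11.13, 11.01 and 10.99 in untreated SIMPL-/- MEFs. With TNFα they were 9.04, 9.30, 9.30 and 9.47 in littermate and 11.41, 11.40, 11.36 and 11.63 in SIMPL-/- MEFs. Every SIMPL-/- array lay above every littermate array. The difference was 1.70 (SE 0.092, adjusted p = 3.43e-11, 3.26-fold) without and 2.17 (adjusted p = 1.15e-12, 4.51-fold) with TNFα.

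Fst encodes follistatin, the secreted inhibitor of activin, and differed in the same direction as Inhba. It measured 8.67, 8.72, 8.35 and 8.41 in untreated littermate MEFs and 9.98, 9.98, 9.86 and 9.82 in untreated SIMPL-/- MEFs. After TNFα the values were 8.58, 8.71, 8.83 and 8.95 against 10.07, 10.09, 10.30 and 10.21. Again no littermate array reached the SIMPL-/- range. The difference was 1.37 (SE 0.090, adjusted p = 5.78e-10, 2.59-fold) untreated and 1.40 (adjusted p = 3.75e-10, 2.64-fold) with TNFα. The activin ligand and its inhibitor were thus both higher in SIMPL-/- MEFs in both treatments.

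The 3 TGF-β isoforms did not move in 1 direction. Tgfb1, the most widely expressed isoform, measured 10.32, 10.37, 10.33 and 10.33 in untreated littermate and 10.90, 10.73, 10.82 and 10.64 in untreated SIMPL-/- MEFs. With TNFα it measured 10.61, 10.43, 10.51 and 10.51 against 11.12, 11.04, 10.97 and 11.14. The genotypes did not overlap in either treatment, and Tgfb1 was higher in SIMPL-/- MEFs by 0.44 (SE 0.062, adjusted p = 1.33e-05, 1.36-fold) without and by 0.55 (adjusted p = 6.82e-07, 1.47-fold) with TNFα. Both lie under the 1.5-fold threshold that the study's methods name.

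Tgfb2, an isoform with roles in embryonic development, was lower in SIMPL-/- MEFs. Its values were 8.11, 8.14, 8.17 and 8.11 in untreated littermate and 7.54, 7.51, 7.36 and 7.38 in untreated SIMPL-/- MEFs, and 8.43, 8.29, 8.49 and 8.28 against 7.76, 7.80, 7.69 and 7.84 with TNFα. All SIMPL-/- arrays lay below all littermate arrays. The difference was -0.68 (SE 0.061, adjusted p = 3.46e-08, 1.61-fold) without and -0.60 (adjusted p = 1.81e-07, 1.52-fold) with TNFα. Tgfb3 fell in a narrow range, from 11.35 to 11.51 in untreated littermate and 11.25 to 11.34 in untreated SIMPL-/- MEFs, and was lower by 0.15 (adjusted p = 0.0367) without TNFα. That call was lost without any 1 of arrays 1, 2, 3, 9, 10 or 12, with adjusted p from 0.0611 to 0.106. With TNFα the difference of Tgfb3 was -0.13 (95% interval -0.25 to -0.01, unadjusted, adjusted p = 0.0768) and the groups overlapped. It passed with dim genes left out (adjusted p = 0.0464), with trended and robust variances (adjusted p = 0.0202), and without array 6 (adjusted p = 0.0408) or 16 (adjusted p = 0.0427).

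Of the BMP ligands, Bmp2, an inducer of bone formation, was the dimmest and the only member with a mean under 6 over all arrays. It measured 5.49, 5.89, 5.31 and 5.41 in untreated littermate and 5.01, 5.40, 4.92 and 5.23 in untreated SIMPL-/- MEFs, ranges that overlap. With TNFα it measured 5.95, 6.03, 5.99 and 6.00 against 5.54, 5.27, 5.05 and 5.33, which do not. The genotype difference was -0.38 (SE 0.12, adjusted p = 0.0167) without and -0.69 (adjusted p = 0.000126, 1.62-fold) with TNFα. The untreated call was lost without array 2 (-0.26, adjusted p = 0.0683), array 9 (-0.34, adjusted p = 0.0510) or array 11 (-0.31, adjusted p = 0.0627), and with the methods' t-test (adjusted p = 0.123).

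Bmp4, a BMP ligand expressed in many mesenchymal cells, differed less between the genotypes. It measured 9.01, 9.07, 9.01 and 8.90 in untreated littermate and 8.78, 8.86, 8.83 and 8.88 in untreated SIMPL-/- MEFs, and the highest SIMPL-/- array was just below the lowest littermate array. The difference was -0.16 (95% interval -0.30 to -0.02, adjusted p = 0.0674) without and -0.12 (95% interval -0.26 to 0.02, adjusted p = 0.177) with TNFα. The untreated difference passed the threshold under 6 of the alternative settings (arrays centred, dim genes left out, trended and robust variances, array weights, only the untreated arrays in the fit, and the methods' t-test), with adjusted p from 0.0282 to 0.0474, and without array 4 (adjusted p = 0.0466) or 13 (adjusted p = 0.0405).

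The BMP antagonists Grem1 and Nog showed smaller differences than Fst. Grem1, which encodes gremlin, measured 10.27, 10.31, 10.04 and 10.03 in untreated littermate and 10.57, 10.48, 10.50 and 10.43 in untreated SIMPL-/- MEFs. With TNFα it measured 9.79, 10.23, 10.22 and 10.33 against 10.82, 10.80, 10.56 and 10.94. The genotypes did not overlap in either treatment. Grem1 was higher by 0.33 (SE 0.10, adjusted p = 0.0163) without and by 0.64 (adjusted p = 6.28e-05, 1.56-fold) with TNFα, and the untreated call was lost without array 3 (0.29, adjusted p = 0.0521) or array 4 (0.29, adjusted p = 0.0524). Nog, which encodes noggin, ranged from 7.10 to 7.36 in untreated littermate and from 7.32 to 7.55 in untreated SIMPL-/- MEFs. It was higher by 0.22 (adjusted p = 0.0199) without TNFα, and lost the call without any 1 of arrays 1, 4, 11 or 12, with adjusted p from 0.0553 to 0.0695. It was also lost with arrays centred (0.19, adjusted p = 0.0527) and with the methods' t-test (adjusted p = 0.0801). With TNFα the difference of Nog was 0.09 (95% interval -0.06 to 0.24, adjusted p = 0.363).

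**Figure D2:**
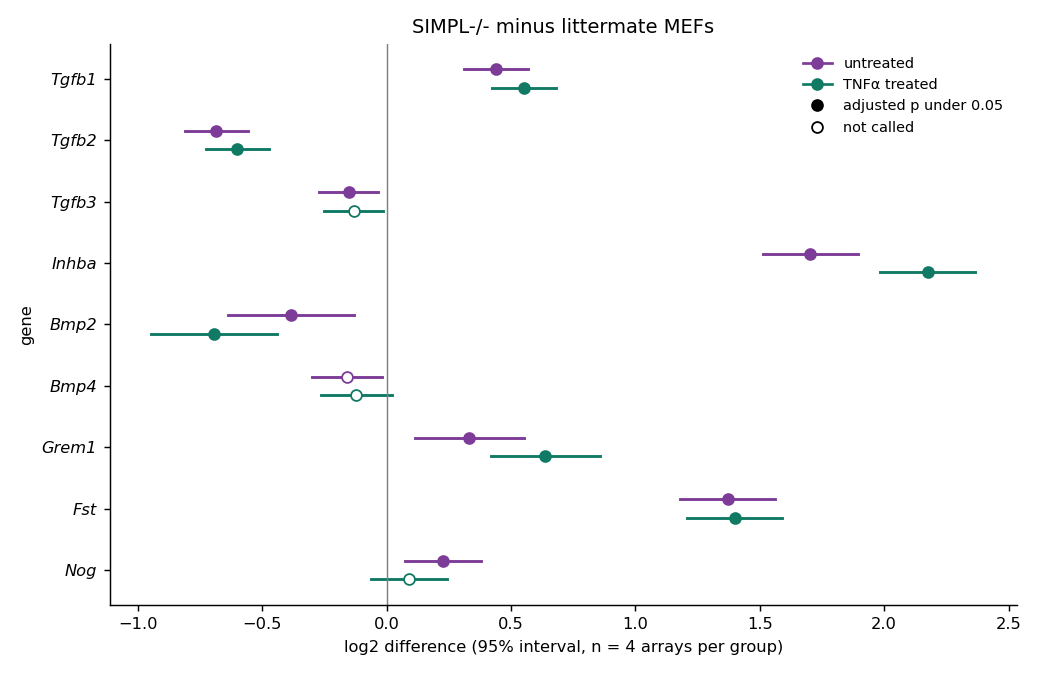
Log2 difference between SIMPL-/- and littermate MEFs for each member, without (purple) and with TNFα (green); points are estimates, lines 95% intervals that are not adjusted for the number of genes, and filled points passed an adjusted p under 0.05. Inhba at 1.70 and 2.17 and Fst at 1.37 and 1.40 stand to the right, and Tgfb2 and Bmp2 lie left of 0 in both treatments.

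The TNFα responses of the members were below 1.5-fold in both genotypes. In littermate MEFs 2 of the 9 rose (Tgfb2 and Bmp2) and 1 fell (Bmp4), where 2.70% of all genes rose and 2.45% fell. In SIMPL-/- MEFs 3 rose (Tgfb1, Tgfb2 and Inhba) and none fell, where 1.73% rose and 1.39% fell. At an unadjusted p under 0.05 in limma 1 member fell there, and none was called lower by the methods' t-test. Shares of all genes at an unadjusted p were not counted, here or below. The median response of the 9 members was 0.11 in littermate and 0.26 in SIMPL-/- MEFs, beside 0.01 and -0.02 over all genes. The genotype comparisons and the responses share their arrays, so the values stand side by side and were not correlated.

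Tgfb2 rose in both genotypes, and its treated arrays lay above its untreated ones in each. The response was 0.32 (SE 0.061, adjusted p = 0.00382) in SIMPL-/- MEFs and 0.24 (adjusted p = 0.0250) in their littermates. The littermate call was lost with each array centred on its median (0.23, adjusted p = 0.0592), and without array 1, 2, 4, 5 or 7, with adjusted p from 0.0547 to 0.0906. Tgfb1 also had treated arrays above untreated ones in both genotypes. Its response was 0.29 (SE 0.062, adjusted p = 0.00965) in SIMPL-/- and 0.18 (95% interval 0.05 to 0.31, unadjusted, adjusted p = 0.109) in littermate MEFs. The SIMPL-/- call was lost with only the SIMPL-/- arrays in the fit (adjusted p = 0.0514), and the littermate response passed with trended, robust variances (adjusted p = 0.0283).

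Inhba rose by 0.39 (SE 0.092, adjusted p = 0.0235, 1.31-fold) in SIMPL-/- MEFs, with no overlap between treated and untreated arrays. This call was lost without array 11 (0.37, adjusted p = 0.0708), array 12 (0.36, adjusted p = 0.0814) or array 16 (0.33, adjusted p = 0.0812). In littermate MEFs the Inhba response was -0.08 (95% interval -0.28 to 0.11, adjusted p = 0.717) and the arrays overlapped. The test of the difference between the responses gave 0.47 for Inhba (SE 0.13, 95% interval 0.20 to 0.74, unadjusted p = 0.00192, adjusted p = 0.134), which missed the threshold.

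Bmp2 rose by 0.47 (SE 0.12, adjusted p = 0.0276, 1.38-fold) in littermate MEFs, where its 4 treated arrays lay within 0.1 of each other and above all untreated ones. Without array 1, 3, 4, 6, 7 or 8 the call was lost, with adjusted p from 0.0562 to 0.0977. In SIMPL-/- MEFs the Bmp2 response was 0.16 (95% interval -0.10 to 0.41, adjusted p = 0.588). Bmp4 was lower after TNFα in littermate MEFs, where it measured 8.67, 8.66, 8.88 and 8.81 on the treated arrays, all below the untreated ones. It fell by 0.25 (SE 0.068, adjusted p = 0.0386). That call was lost with each array centred on its median (adjusted p = 0.0534), with only the littermate arrays in the fit (adjusted p = 0.0706), and without array 1, 2, 3, 5, 6 or 8 (adjusted p from 0.0555 to 0.120). In SIMPL-/- MEFs Bmp4 measured 8.46, 8.76, 8.65 and 8.65 with TNFα, a difference of -0.21 (95% interval -0.35 to -0.07, unadjusted, adjusted p = 0.114), again with no overlap.

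None of the 3 antagonists passed the threshold for a TNFα response. The Fst response was 0.23 in littermate (95% interval 0.04 to 0.42, adjusted p = 0.184) and 0.26 in SIMPL-/- MEFs (95% interval 0.07 to 0.45, adjusted p = 0.150). The Grem1 response was -0.02 in littermate (95% interval -0.24 to 0.20, adjusted p = 0.960) and 0.29 in SIMPL-/- MEFs (95% interval 0.07 to 0.51, adjusted p = 0.168). The Nog response was 0.11 (adjusted p = 0.516) and -0.03 (adjusted p = 0.910). For Tgfb3 it was -0.06 (adjusted p = 0.650) and -0.04 (adjusted p = 0.803).

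No member passed the test of the difference between the TNFα responses of the genotypes in limma, where 0.0953% of all genes had a higher and 0.441% a lower response in SIMPL-/- MEFs. At an unadjusted p under 0.05 there was 1 member, Inhba. A fit of the 4 groups without moderated variances called none. After Inhba, the widest differences were -0.31 for Bmp2 (95% interval -0.67 to 0.05) and 0.31 for Grem1 (95% interval -0.003 to 0.61). For Tgfb1 the difference was 0.11 (95% interval -0.07 to 0.29) and for Tgfb2 0.08 (95% interval -0.10 to 0.26), and these intervals do not show that the genotypes responded alike.

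**Figure D3:**
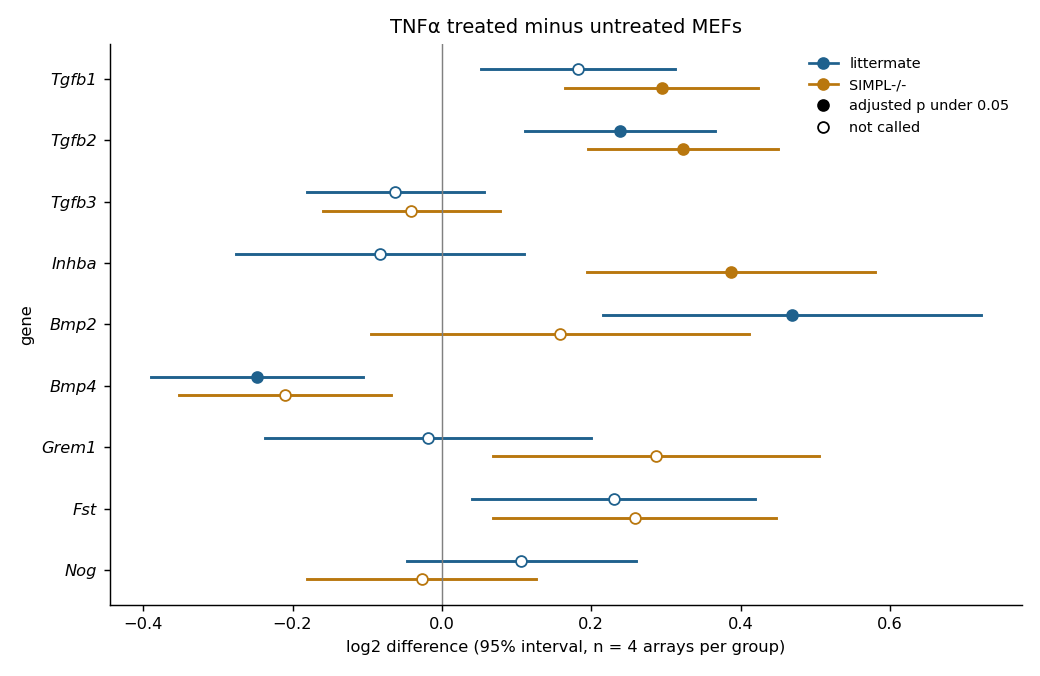
Log2 difference between TNFα treated and untreated MEFs for each member in littermate (blue) and SIMPL-/- MEFs (brown); points are estimates, lines 95% intervals that are not adjusted for the number of genes, and filled points passed an adjusted p under 0.05. The widest gap between genotypes is at Inhba, whose response was -0.08 in littermate and 0.39 in SIMPL-/- MEFs.

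The genes whose values followed each member most closely over the 16 arrays were found as a description, in which the gap between genotypes weighs heavily. For Inhba these were Chst2, a sulfotransferase, and Tfpi2, a protease inhibitor (Pearson's r = 0.995 and 0.994), and for Fst Ext1, a heparan sulfate polymerase, and Crim1, a BMP-binding membrane protein (0.995 and 0.992). For Tgfb1 they were the phosphatase Dusp5 and the kinase Map2k3 (0.978 and 0.972), and for Tgfb2 the metallothionein Mt1 and the semaphorin receptor Nrp2 (0.975 and 0.974). For Grem1 they were the phosphatase Phlpp1 and the matrix protein tenascin C, Tnc (0.968 and 0.958). The closest genes to the other members had r of 0.934 (9930021J03Rik) and 0.927 (Cemip) for Tgfb3, 0.912 (Zfp329) and 0.911 (Plekhh3) for Bmp4, 0.873 (Ets2) and 0.868 (Mbtd1) for Bmp2, and 0.867 (Defb30) and 0.858 (Ube2s) for Nog.

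None of the 25 other ligands was called in either TNFα response in limma. At an unadjusted p under 0.05 none moved in littermate MEFs and 2 were lower in SIMPL-/- MEFs, and the methods' t-test called none. In untreated cells 11 were higher and 2 lower in SIMPL-/- MEFs, beside 23.3% and 17.6% of all genes, and with TNFα 5 were higher and 4 lower, beside 17.8% and 18.4%. The untreated count of higher ligands was 7 after quantile normalization, and 6, 7 and 5 without array 1, 3 or 12. It was 5 with dim genes left out, a filter that takes ligands with a mean under 6 out of the test. Inhbb, the subunit of activin B, went from a mean of 7.78 ± 0.10 in untreated littermate to 9.01 ± 0.03 in untreated SIMPL-/- MEFs, a difference of 1.23 (adjusted p = 2.66e-09). Inhba and Inhbb were thus both higher. Gdf6, a BMP-like ligand, was higher by 0.84 (adjusted p = 2.19e-06). Lefty2 was higher by 0.33 (adjusted p = 0.0235) but dim, with means of 4.27 in untreated littermate and 4.61 in untreated SIMPL-/- MEFs. The list counts the family members Lefty1, Lefty2 and Inha as ligands, whether they activate or inhibit signalling. Gdf10, also called BMP3b, was lower by 1.72 (adjusted p = 2.05e-09) and Bmp5 by 0.21.

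The 12 other antagonists did not share a direction. In untreated cells 4 were higher and 5 lower in SIMPL-/- MEFs, beside 23.3% and 17.6% of all genes. With TNFα 2 were higher and 5 lower, beside 17.8% and 18.4%. Fstl3, a follistatin-like inhibitor of activin, was higher by 0.64 (adjusted p = 7.75e-08), Bmper by 0.48 (adjusted p = 4.71e-07) and Chrdl2 by 0.26. Chrdl2 was dim, with means of 5.65 in untreated littermate and 5.90 in untreated SIMPL-/- MEFs. Sostdc1 was lower by 1.09 (adjusted p = 5.17e-08), Chrdl1 by 0.91 (adjusted p = 1.71e-08) and Chrd, chordin, by 0.44. With TNFα Twsg1 was among the 3 lowest, with a difference of -0.54. Of the follistatin family, Fst and Fstl3 lay above their littermate range in untreated SIMPL-/- MEFs and Fstl1 lay below it (-0.29, adjusted p = 0.000114; named after its values were seen), and 3 chordin family genes, Chrd, Chrdl1 and Chrdl2, divided. The untreated count of higher antagonists was 2 without array 1 or 11 and after quantile normalization.

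Latent TGF-β is held in the matrix and on cell surfaces until integrins or proteases release it. Of 14 genes measured for this step, 6 were higher and 6 lower in SIMPL-/- MEFs both without and with TNFα. Of all genes, 23.3% were higher and 17.6% lower without TNFα, and 17.8% and 18.4% with it. Fbn2, a fibrillin that holds latent complexes, was lower by 1.69 (adjusted p = 4.21e-11), Ltbp4 by 0.84 and Nrros, a carrier of latent TGF-β on myeloid cells, by 0.83 (adjusted p = 0.000607). Lrrc32, another carrier (GARP), was higher by 0.80, Furin, the protease that processes the precursors, by 0.41, and Itgav, the αv integrin, by 0.40. With TNFα Itgb8, a partner of αv, rose by 0.42 (adjusted p = 0.00948) in littermate MEFs, and Lrrc32 rose by 0.39 (adjusted p = 0.00923) and Itgb5 fell by 0.24 (adjusted p = 0.0399) in SIMPL-/- MEFs. Itgb5 did not pass after median centring, nor without array 1, 2, 3, 4, 6, 7, 9, 11, 12, 13, 14 or 16.

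Of the 16 receptors and coreceptors, 5 were higher and 5 lower in untreated SIMPL-/- MEFs, beside 23.3% and 17.6% of all genes. With TNFα 6 were higher and 5 lower, beside 17.8% and 18.4%. Tgfbr2, the type II receptor of TGF-β, was 11.16 ± 0.05 in untreated littermate and 10.25 ± 0.06 in untreated SIMPL-/- MEFs, a difference of -0.91 (adjusted p = 4.13e-10) that was -0.96 with TNFα. The coreceptor Tgfbr3 was lower by 0.29 and the activin receptor Acvr2a by 0.45. Higher were the coreceptor Eng, endoglin (0.72, adjusted p = 1.77e-06), Acvr1c (0.62) and Acvrl1 (0.53). Acvr1c was dim, with means of 4.72 in untreated littermate and 5.33 in untreated SIMPL-/- MEFs. No receptor was called for a TNFα response in littermate MEFs, where 1 was lower at an unadjusted p under 0.05 and the methods' t-test called none. In SIMPL-/- MEFs the BMP receptor Bmpr1b rose by 0.35 (adjusted p = 0.0183) and Acvr2a fell by 0.33 (adjusted p = 0.0134). No receptor rose there without array 12 or 16, and none fell without array 13 or with arrays centred.

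Among the pathway genes, 3 inhibitors of SMAD signalling rose with TNFα in both genotypes. Of 14 SMADs and SMAD regulators, 3 rose and none fell in littermate MEFs, beside 2.7% and 2.45% of all genes. In SIMPL-/- MEFs 4 rose and 2 fell, beside 1.73% and 1.39%. At an unadjusted p under 0.05 in limma 3 were lower in littermate MEFs, and the methods' t-test called none lower. Skil (SnoN), a corepressor of SMADs, rose by 0.44 (adjusted p = 2.13e-05) in SIMPL-/- MEFs and by 0.67 (adjusted p = 3.94e-08) in their littermates. Tgif1, another corepressor, rose by 0.42 (adjusted p = 3.98e-05) and 0.65 (adjusted p = 6.92e-08), in the same order. Smad7, the inhibitory SMAD, rose by 0.52 (adjusted p = 6.20e-05) and 0.56 (adjusted p = 1.66e-05). None of the 3 passed the test of the difference between the responses. At an unadjusted p under 0.05 in that limma test, 1 of the 14 genes had a higher and 4 a lower response in SIMPL-/- MEFs. The share of all genes at that threshold was not counted. In SIMPL-/- MEFs Smad6 fell by 0.30 (adjusted p = 0.0206) and Smad3 by 0.23 (adjusted p = 0.0186), and this count of 2 was 0 without array 11, 12 or 14 and 1 without array 9 or 13. Between genotypes Smad7 was higher by 0.81 (adjusted p = 1.25e-08), Smad6 by 0.59 and the ubiquitin ligase Smurf1 by 0.50 in untreated SIMPL-/- MEFs, and Smad2 was lower by 0.35, Ski by 0.34 and Smad5 by 0.22.

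**Figure D4:**
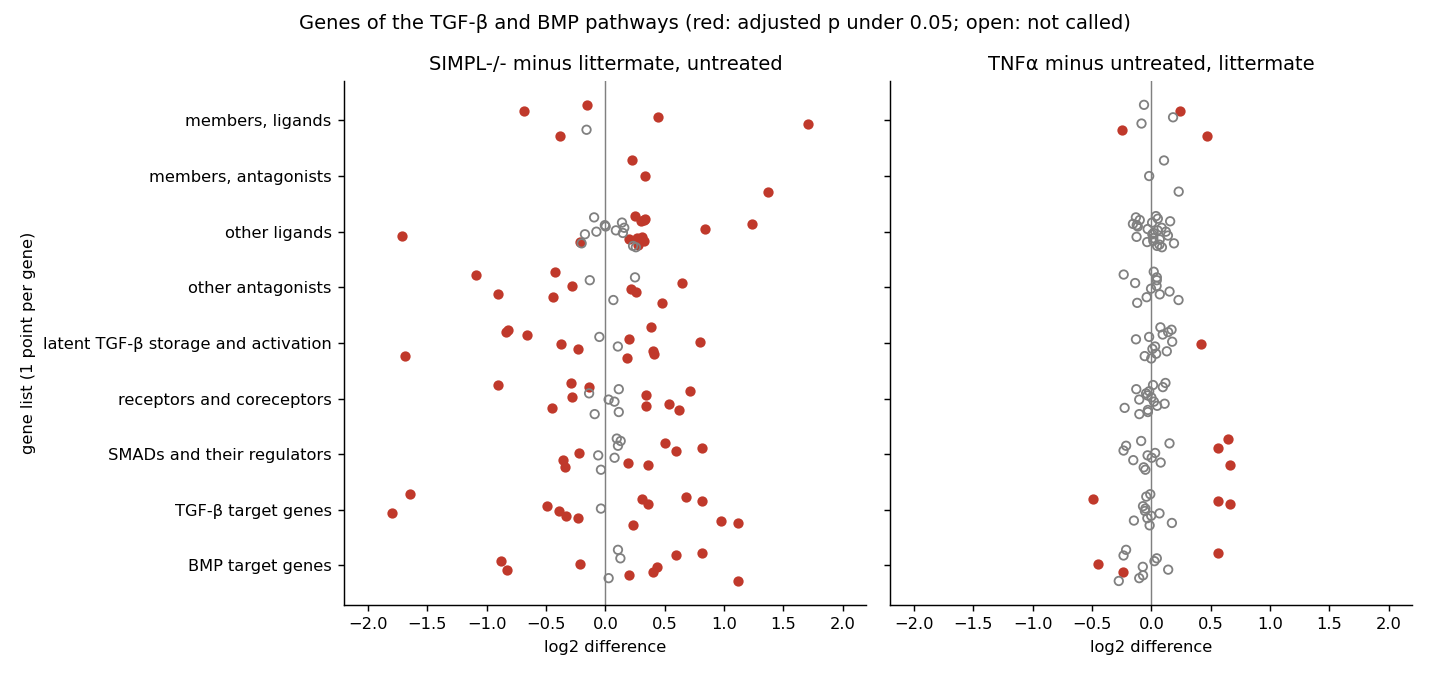
Log2 differences of every measured gene of the pathway lists, for SIMPL-/- against littermate MEFs without TNFα (left) and for the TNFα response in littermate MEFs (right); each point is 1 gene, red where the adjusted p was under 0.05 and open where not, and Skil, Smad7 and some other genes stand on more than 1 list. Red points lie on both sides of 0 in every list but the member antagonists on the left, and few are red on the right.

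The target genes of the pathway moved in both directions between genotypes. Of 14 measured TGF-β targets, 7 were higher and 6 lower in untreated SIMPL-/- MEFs, where 23.3% of all genes were higher and 17.6% lower. Ccn2, a matricellular growth factor, was higher by 1.11 (adjusted p = 7.87e-08) and Cnn1, calponin, by 0.97, while the matrix genes Eln (elastin, -1.80, adjusted p = 2.11e-11), Tgfbi (-1.64, adjusted p = 3.45e-12) and Postn (periostin, -0.49) were lower. Of 12 BMP targets, 6 were higher and 3 lower. Atoh8 was higher by 1.12 (adjusted p = 3.81e-09), and Id2 was lower by 0.83 (adjusted p = 3.63e-08), Msx1 by 0.88 and Id4 by 0.22. With TNFα the counts were 5 and 6 for TGF-β targets and 4 and 3 for BMP targets, beside 17.8% and 18.4% of all genes.

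In the TNFα responses, 2 of the 14 TGF-β targets rose and 1 fell in littermate MEFs, beside 2.7% and 2.45% of all genes. In SIMPL-/- MEFs 2 rose and 2 fell, beside 1.73% and 1.39%. The 2 that fell there were 1 in 14 of the 16 fits without 1 array. Those that rose, Skil and Smad7, are also counted as regulators. Snai2 (Slug), a repressor of epithelial genes, measured 9.91 ± 0.06 untreated and 9.42 ± 0.08 treated in littermate, and 10.22 ± 0.05 and 9.32 ± 0.09 in SIMPL-/- MEFs. It fell by 0.49 (adjusted p = 1.93e-05) and by 0.90 (adjusted p = 6.96e-09), and was the only gene of the pathway lists to pass the test of the difference between responses (-0.41, SE 0.08, adjusted p = 0.0268). No TGF-β target passed that test with arrays centred on their medians, or without array 2, 3, 4, 6, 7, 9, 10, 13 or 14. Of the BMP targets, 1 rose and 2 fell in littermate MEFs, beside 2.7% and 2.45% of all genes. In SIMPL-/- MEFs 1 rose and 5 fell, beside 1.73% and 1.39%. The count of 2 was 1 without array 1, 3, 6 or 7 and that of 5 was 3 without array 14. Id4, a helix-loop-helix inhibitor, fell by 0.53 (adjusted p = 0.000252) in SIMPL-/- MEFs and 0.45 (adjusted p = 0.000882) in their littermates. Id1 fell by 0.24 (adjusted p = 0.0402) in littermate MEFs, and Atoh8 by 0.54 (adjusted p = 0.000685) and Hey1 by 0.41 (adjusted p = 0.00123) in SIMPL-/- MEFs.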

How the data were processed

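The deposited table holds log2 values that the authors made with RMA in Partek (submitters' processing notes, no versions); the methods name Affymetrix Microarray Suite version 5. Values ran from 2.41 to 14.9, with array medians of 6.67 to 6.76, a within-group r across genes of at least 0.995 and median gene SDs of 0.089 to 0.103, and precision is limited by the few arrays per group. Of 28853 probe sets, 21789 had 1 symbol, 1621 had several and 5443 were not listed. The probe set with the highest mean stood for each of 19938 genes, with no filter on dim genes. Arrays were grouped by their labels. A mean per group was fitted with limma 3.58.1 in R 4.3.3 (12 residual and 6.19 prior degrees of freedom), with two-sided tests and adjustment over all genes of a contrast. Intervals are 95%. Alternatives changed the scaling, the filter on dim genes, the probe set rule, the moderation, the array weights, the arrays fitted, the test and the call rule, and left out each array. Named genes were the members and, per pathway list and contrast, up to 3 called genes with the largest change in each direction, for the contrasts described. Members, lists and tests were chosen with earlier results of these data known. The fit was tested on simulated data.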

Additional observations from a re-analysis of the deposited data

Results flagged for a closer look

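In the 36 sets of 4 arrays formed by the 9 members and 4 groups, 2 held an array whose gap to the nearest other array exceeded Dixon's 95% critical value. Chance flags about 1 in 20 such sets. Both were array 16 of the TNFα treated SIMPL-/- MEFs. Inhba measured 11.63 there, against 11.36 to 11.41 on the other arrays of the group (ratio 0.842). Nog measured 7.58, against 7.33 to 7.37 (ratio 0.838).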

How the results depend on the processing

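No paired analysis was possible because arrays are not tied to embryos in the labels. Of the members called for a TNFα response in littermate MEFs, 2 rose and 1 fell. With arrays centred on their medians these counts were 1 and 0, and with only the littermate arrays 1 and 0. With dim genes left out 1 rose, because that filter takes Bmp2 out of the test. With the methods' t-test, or a fold over 1.5 and p under 0.001, the counts were 0 and 0. In SIMPL-/- MEFs 3 rose, but 0 with the t-test and 0 with the fold rule. Leaving out 1 array gave 0 to 2 rising and 0 to 1 falling members in littermate and 2 to 3 rising members in SIMPL-/- MEFs. Between untreated genotypes 5 were higher and 3 lower, against 2 and 1 under the fold rule and 3 to 5 and 1 to 4 without 1 array; with TNFα, leaving out 1 array gave 4 higher and 2 to 3 lower. The differences of Inhba, Fst and Tgfb2 between genotypes passed under every setting run, and that of Tgfb1 under all but the fold rule. With TNFα those of Grem1 and Bmp2 also passed under every setting in which they were tested. Differences near 0 changed sign. The Fst difference between responses was -0.024 under quantile normalization (-0.036 to 0.090 without 1 array), and the Nog response in SIMPL-/- MEFs was 0.0029 with arrays centred (-0.084 to 0.010). Without 1 array the Grem1 response in littermate MEFs ran from -0.081 to 0.099, and the difference between responses from -0.011 to 0.050 for Tgfb3 and -0.0054 to 0.095 for Bmp4. Centring turned the 345 rising and 278 falling genes of SIMPL-/- MEFs into 357 and 131. Between untreated genotypes it turned 4640 higher and 3511 lower genes into 3548 and 3725. The cause of neither shift was tested.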
